A study of Mus musculus with 6 samples.

Results

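Nesprins, SUN proteins and lamins hold and move the nucleus. The members were the 9 genes whose name in the count table is Syne1, Syne2, Syne3, Syne4, Sun1, Sun2, Lmna, Lmnb1 or Lmnb2. They filled 10 of the table's 38561 rows, because Syne1 is listed under 2 Ensembl IDs, and all 10 rows had enough reads to be tested. They were chosen by gene family after the genotype differences of these same libraries were known, in which Syne4 had the smallest p among them, so their genotype differences are given as a description.

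The medial ganglionic eminence (MGE) is a part of the embryonic ventral forebrain that gives rise to many cortical interneurons. RNA of its cells was sequenced to compare embryos with and without a targeted allele of Magoh, which encodes a subunit of the exon junction complex, a mark left on mRNA where introns were removed. The 2 heterozygous libraries carried the genotype Magoh lox/+ with Nkx2.1-Cre and ROSAloxSTOPloxTdTomato, and the 4 control libraries carried the same Cre and reporter without the lox allele. All embryos were of strain C57BL/6 at E11.5, and tdTomato-positive telencephalon cells were sorted by flow cytometry. Cre is driven by Nkx2.1, so the allele is targeted in the Nkx2.1 lineage alone, and tdTomato marks cells by the recombined reporter, not by the Magoh allele itself. The labels do not say whether the libraries came from separate embryos. Y-linked reads, given below, were absent from heterozygous library 1 and control 2 and present in the others. The 2 heterozygous libraries were therefore not repeats of 1 embryo, nor was control 2 a repeat of another control. For the other controls this is not known, so p-values reflect only library-to-library spread, which may in part be technical.

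The LINC complex spans the nuclear envelope. Nesprins (the Syne genes) sit in the outer nuclear membrane and reach into the cytoplasm to actin, dynein and kinesin, and their short C-terminal KASH tail is gripped between the membranes by SUN proteins (Sun1, Sun2). SUN proteins in turn touch the lamina, a meshwork of A-type lamins (Lmna, which gives lamins A and C by alternative splicing) and B-type lamins (Lmnb1, Lmnb2) under the inner membrane. In mouse neural progenitors this chain carries out the interkinetic movement of nuclei, and in young neurons it pulls the nucleus along behind the leading process.

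The ends of the coding sequences show what joins the nesprins to SUN proteins and the lamins to the membrane. The last 90 coding bases before the stop codon, taken from GENCODE M21 transcripts (GRCm38), encode part of the KASH tail, and capitals mark the last 4 codons, where proline codons begin with CC. The stretches lie at chr10:5022010-5022099 on the minus strand for Syne1, chr12:76109952-76110041 on the plus strand for Syne2, chr12:104932168-104932257 on the minus strand for Syne3 and chr7:30318909-30318998 on the plus strand for Syne4.
Syne1: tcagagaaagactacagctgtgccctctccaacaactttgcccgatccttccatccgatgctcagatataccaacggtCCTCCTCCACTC
Syne2: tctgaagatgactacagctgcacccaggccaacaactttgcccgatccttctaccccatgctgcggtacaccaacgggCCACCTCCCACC
Syne3: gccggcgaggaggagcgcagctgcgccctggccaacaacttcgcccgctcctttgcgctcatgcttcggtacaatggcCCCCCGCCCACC
Syne4: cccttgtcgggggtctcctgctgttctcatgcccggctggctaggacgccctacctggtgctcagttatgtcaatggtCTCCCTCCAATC
In Syne1, Syne2 and Syne3 all 3 codons before the last began with CC, and in Syne4 2 of them did, the exception being CTC. Position by position without gaps, Syne1 and Syne2 shared 76.7% of the 90 bases, while the other pairs shared 40.0 to 46.7%.

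The end of a B-type lamin shows the CaaX box, the last 4 codons, which open with a cysteine codon that is farnesylated and so ties the protein to the membrane. The last 60 coding bases of Lmnb2 are shown with these codons in capitals, from the minus strand of GRCm38 within chr10:80902862-80903232, across an intron.
Lmnb2: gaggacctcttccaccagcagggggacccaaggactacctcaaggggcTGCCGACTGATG
The capitals open with TGC, a cysteine codon. Counts per gene do not separate splice forms, so lamins A and C are read here as a single Lmna value.

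Library totals lay between 37429290 and 49189360 counts. Magoh itself stood at 57.1 and 48.5 CPM (counts scaled to the library total) in heterozygous libraries 1 and 2, against 68.1, 118, 63.6 and 74.3 CPM in controls 1 to 4, a log2 fold change of -0.62 ± 0.27 (SE) that did not pass (edgeR, adjusted p = 0.850). All 11 MGE lineage markers had reads in every library, with a summed level of 1478 and 2683 CPM in heterozygous libraries and 953 to 1863 CPM in controls. Heterozygous library 1 and control 2 had 0 reads from 4 Y-linked genes, and the other 4 libraries had 3453 to 4291. Xist stood at 111 and 94.2 CPM in these 2 libraries and at 0 to 0.549 CPM in the other 4. In the same 2 libraries long transcripts were low relative to short ones. The median deviation of genes of 8000 nt or more minus that of genes under 1000 nt was -0.40 log2 units in heterozygous library 1 and -0.92 in control 2, against 0.12 in heterozygous library 2 and 0.20 to 0.51 in controls 1, 3 and 4. Values are therefore also given for heterozygous library 1 against control 2, and for heterozygous library 2 against controls 1, 3 and 4. Across all genes, edgeR called 0 of 16495 (0% called; 944, or 5.72%, had an unadjusted p under 0.05) and DESeq2 called 54 of 17893 (0.302% called).

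B-type lamins were by far the most abundant members. Per kb of exon, Lmnb1 stood at 161 and 177 CPM per kb in heterozygous libraries and 183, 144, 195 and 177 CPM per kb in controls 1 to 4. Lmnb2 followed at 22.04 ± 2.77 CPM per kb over all 6 libraries (SD), Sun2 at 9.35 ± 1.78, Sun1 at 6.43 ± 1.36 and Syne2 at 6.17 ± 4.44. Lmna stood at 1.082 ± 0.384 CPM per kb, Syne4 at 0.571 ± 0.333, Syne1 at 0.0700 ± 0.0436 with both IDs summed, and Syne3 at 0.0317 ± 0.0374. Each member was above the next in 6 of 6 libraries, except that Sun1 was above Syne2 in 3 of 6, so these neighbours were not separated beyond their spread. The order of the means was the same with the length of the longest coding transcript in place of all exons. Sun2 and Sun1 then came closer, at 13.3 and 11.8 CPM per kb, and the order within each library was not compared with these lengths. Over its range Lmnb1 was 113 to 254 times as abundant as Lmna within a library, per kb.

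**Figure D1:**
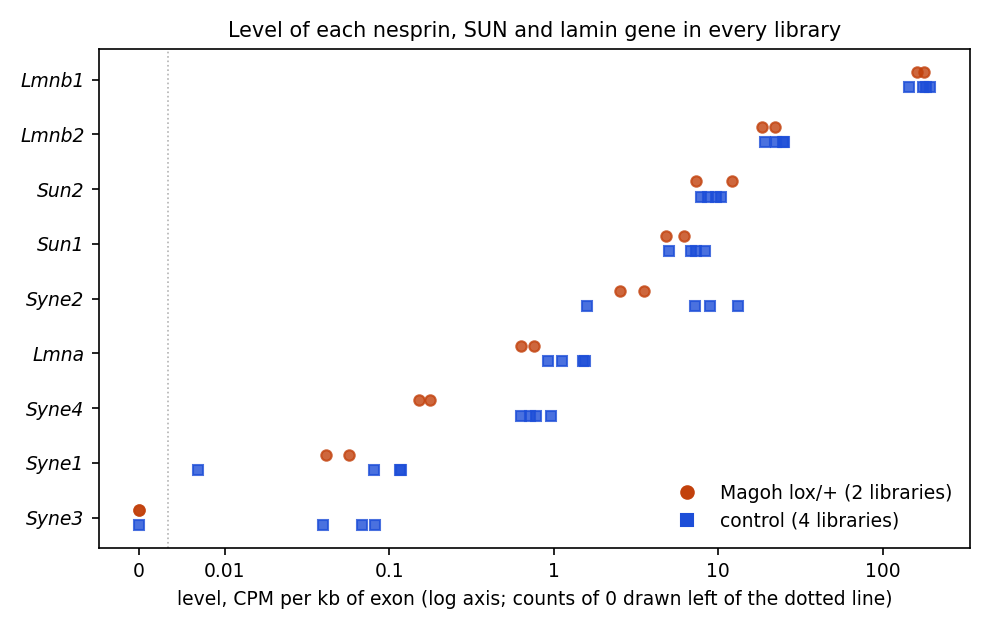
Level of each member in CPM per kb of exon on a log axis, with circles for the 2 Magoh lox/+ libraries above squares for the 4 controls; counts of 0 are drawn left of the dotted line. Lmnb1 lies between 144 and 195 CPM per kb, and Syne3 is at 0 in both Magoh lox/+ libraries and in 1 control.

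At the start sites chosen here, the 4 more abundant members among those with a promoter entry also had the more CpG-rich promoters. In the RefSeq table (GRCm38.p6), 8 of 9 members had an entry, and the most abundant member, Lmnb1, had none. For each entry the 250 bases before the start site nearest that of the longest coding transcript were taken. The more abundant Sun2, Sun1, Syne2 and Lmnb2 had 31, 30, 26 and 14 CpG dinucleotides there. The scarce Syne1, Syne4, Syne3 and Lmna had 7, 6, 4 and 1. Over 32817 promoters of the same length the median was 6 and the quartiles were 2 and 16. Sun1 and Lmnb2 each have a second entry with 1 and 5 CpG, so for them the count depends on the start site chosen. With those entries the split between abundant and scarce members does not hold. Syne4, with a CpG count at the median of all promoters, and Sun2, with more CpG than 94.8% of them, show the contrast. Capitals mark each CpG, at chr7:30314566-30314815 on the plus strand for Syne4 and chr15:79742537-79742786 on the minus strand for Sun2.
Syne4: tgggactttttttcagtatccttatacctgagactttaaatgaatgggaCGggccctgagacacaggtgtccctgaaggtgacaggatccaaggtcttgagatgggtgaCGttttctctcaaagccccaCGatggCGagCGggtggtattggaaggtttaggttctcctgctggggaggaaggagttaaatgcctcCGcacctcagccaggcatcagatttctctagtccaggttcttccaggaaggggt
Sun2: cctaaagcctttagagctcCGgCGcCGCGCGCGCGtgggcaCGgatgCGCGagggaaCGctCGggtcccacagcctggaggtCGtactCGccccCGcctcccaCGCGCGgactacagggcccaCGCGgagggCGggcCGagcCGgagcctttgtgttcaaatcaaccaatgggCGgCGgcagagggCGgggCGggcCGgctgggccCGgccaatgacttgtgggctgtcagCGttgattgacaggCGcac
These counts describe the sequence, and methylation was not measured here.

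Among the nesprins, Syne4 (nesprin-4; ENSMUSG00000019737; chromosome 7, 30314807 to 30319046, plus strand, GRCm38) showed the clearest separation. In the mouse it is known as the nesprin of epithelial cells and of outer hair cells, where it binds kinesin and places the nucleus towards the cell base. It had 22 reads in each heterozygous library, against 86, 67, 128 and 95 reads in controls 1 to 4. That is 0.518 and 0.447 CPM in heterozygous cells, against 2.30, 1.86, 2.83 and 2.13 CPM in controls. Both heterozygous libraries lay below every control. Exact Poisson 95% intervals, which cover counting error only, reached up to 0.785 CPM at most in heterozygous libraries and down to 1.44 CPM at least in controls. The mean was 0.483 ± 0.0502 CPM in heterozygous cells (SD, n = 2) and 2.28 ± 0.407 CPM in controls (SD, n = 4), or 4.72-fold lower in heterozygous cells. The log2 fold change was -2.23 ± 0.42 (SE), with an edgeR adjusted p of 0.793 over all genes. DESeq2 called it (adjusted p = 0.00855). It was -1.76 log2 units in heterozygous library 1 against control 2, and -2.31 in heterozygous library 2 against controls 1, 3 and 4. At 1355 nt, its longest coding transcript is the shortest among the nesprins, and removing each library's length and GC trends gave -2.18 ± 0.43 (SE).

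Markers of surface ectoderm and epithelium gave no single direction. The 14 surface ectoderm and epithelium markers summed to 16.33 and 13.1 CPM in heterozygous libraries and 16.36 to 24.3 CPM in controls. Both heterozygous sums lay below all controls, that of library 1 only just. Of 12 tested, 7 were below 0, where 53.9% of all tested genes were. Of the 12, 2 (Cdh1 and Grhl2) had both heterozygous libraries below all controls, as did 8.14% of all tested genes. The cell adhesion protein Cdh1 (E-cadherin) stood at 3.04 and 3.11 CPM in heterozygous cells and 5.20 to 8.09 CPM in controls. Grhl2, a transcription factor of epithelia, had 0 reads in both heterozygous libraries and 0.167 to 0.456 CPM in controls. Esrp2 was also at 0 in both heterozygous libraries, as it was in controls 2 and 3, and Krt14 and Ovol1 were at 0 in every library. Trp63 and Krt5 were at 0 in heterozygous library 2 and Esrp1 in control 2. The keratins Krt18 and Krt8 had log2 fold changes of 0.50 and 0.48. Krt5, Esrp1 and Cldn6 had 0.52, 0.50 and 0.15, all of these with overlapping groups. Of the 7 below 0, Trp63, Cdh1, Epcam, Cldn4 and Grhl3 had -1.14, -1.05, -1.02, -0.38 and -0.30. The others, Grhl2 and Esrp2, are those at 0 in both heterozygous libraries. The part of such cells in the Syne4 difference was not tested, and in bulk RNA fewer cells of a type and less RNA per cell cannot be told apart. Blood markers summed to 361 and 0.610 CPM in heterozygous libraries and 29.6 to 133 CPM in controls.

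Over the 6 libraries, the genes of at least 1 CPM whose log2 CPM was most like that of Syne4 were Syncrip, Pfas, Stc2, Wdr90 and Xpo1, with Pearson's r of 0.984 to 0.997 among 11942 genes compared. Syncrip, an RNA-binding protein, had an r of 0.997 with a log2 fold change of -0.22. Xpo1, the main nuclear export receptor, stood at 143 and 137 CPM in heterozygous cells and 176 to 201 CPM in controls. With 6 libraries and this many genes such values of r are a description only.

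Syne3 (nesprin-3; ENSMUSG00000054150; chromosome 12, 104929933 to 105009809, minus strand), which links the nucleus to intermediate filaments through plectin, was close to the detection limit. It had 0 reads in both heterozygous libraries, against 17, 0, 10 and 17 reads in controls 1 to 4. The groups overlapped, since control 2 also had none. Controls averaged 0.264 ± 0.201 CPM (SD, n = 4), and 0 reads over both heterozygous libraries together allow a mean of up to 0.0327 CPM there (3 counts over the group). The control mean was 8.07-fold this floor, a ratio that leaves out the spread between controls. When each control was left out, the ratio ran from 6.12 to 10.8. Syne3 passed the count filter through the control libraries alone, and it was not called (edgeR, adjusted p = 0.850). Its partner Plec (plectin) stood at 43.7 and 56.7 CPM in heterozygous cells, against 117, 39.1, 132 and 131 CPM in controls 1 to 4. For Plec the groups overlapped, and control 2 was lowest, as for Syne2 below.

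**Figure D2:**
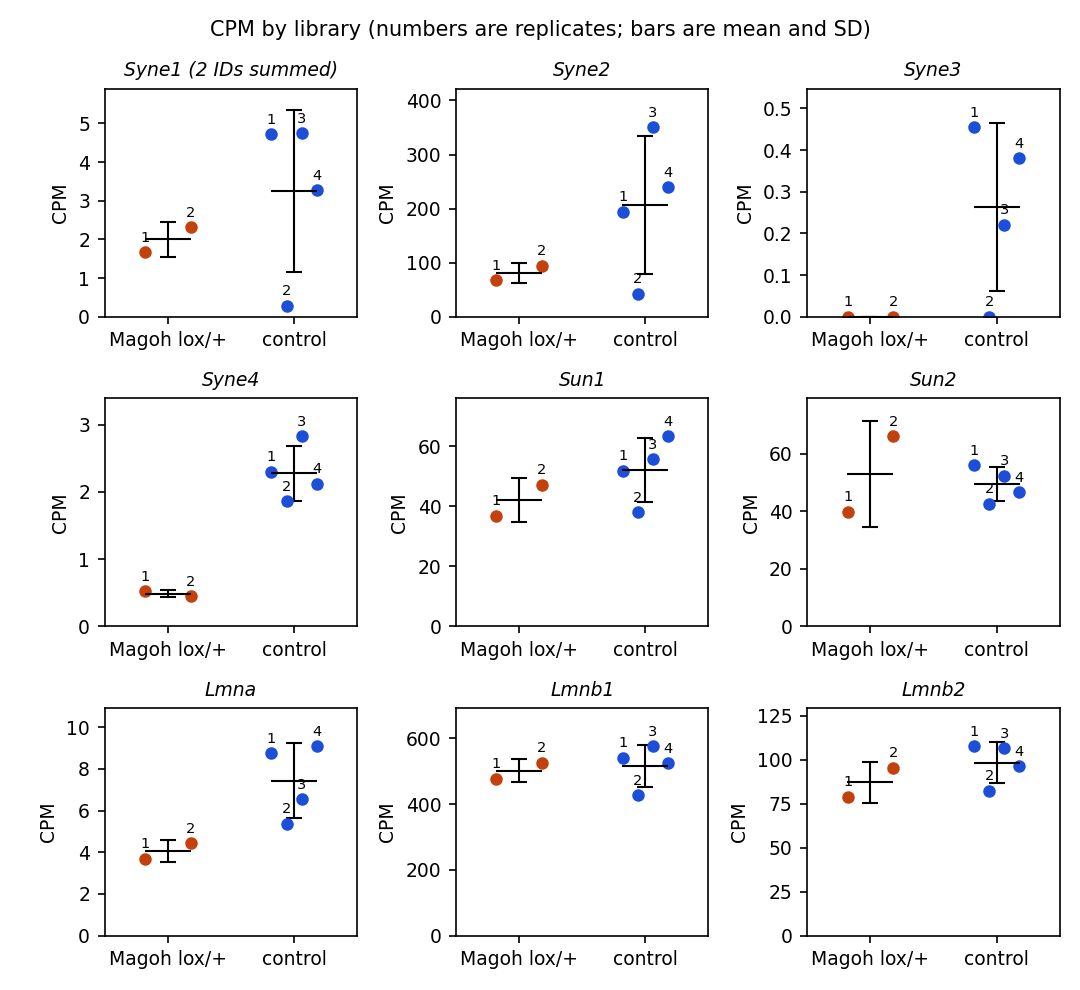
CPM of each member in every library, with Magoh lox/+ left of control; points are libraries numbered by replicate, and bars are the mean and SD. Syne4 and Lmna in both Magoh lox/+ libraries lie below all 4 controls, and control 2 is the lowest control for Syne1, Syne2, Syne4, Sun1, Sun2, Lmna, Lmnb1 and Lmnb2.

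The giant nesprins differed widely from library to library. Syne2 (nesprin-2; ENSMUSG00000063450; chromosome 12, 75818134 to 76110926, plus strand) encodes a giant protein that binds actin and the dynein and kinesin motors, and its longest coding transcript has 115 exons and 21704 nt. It stood at 68.0 and 94.3 CPM in heterozygous libraries 1 and 2, against 194, 42.4, 351 and 239 CPM in controls 1 to 4. Control 2 was lowest, both heterozygous libraries came next, and controls 1, 3 and 4 were high, so the groups overlapped. The means were 81.2 ± 18.6 CPM in heterozygous cells (SD, n = 2) and 207 ± 128 CPM in controls (SD, n = 4), which is a log2 fold change of -1.35 ± 0.69 (SE; edgeR, adjusted p = 0.885). The direction differed within the library sets. Heterozygous library 1 was 0.68 log2 units above control 2, while heterozygous library 2 differed by -1.43 log2 units from controls 1, 3 and 4. The interaction of genotype with Y-linked reads was -2.15 log2 units. It is a description only, since no set but controls 1, 3 and 4 holds more than 1 library.

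Syne2 moved with other very long transcripts. Its deviation from its own mean log2 CPM was -0.91 and -0.44 in heterozygous libraries 1 and 2, against 0.60, -1.60, 1.45 and 0.90 in controls 1 to 4. The median deviation of the 70 genes of 15000 nt or more, Syne2 among them, was -0.23 and -0.24 in heterozygous libraries, against 0.37, -0.68, 0.55 and 0.23 in controls. Both were lowest in control 2 and highest in control 3. Without control 2 the Syne2 log2 fold change was -1.67 ± 0.28 (SE; edgeR, adjusted p = 0.145), and with length and GC trends removed it was -0.82 ± 0.37 (SE; adjusted p = 0.629).

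**Figure D3:**
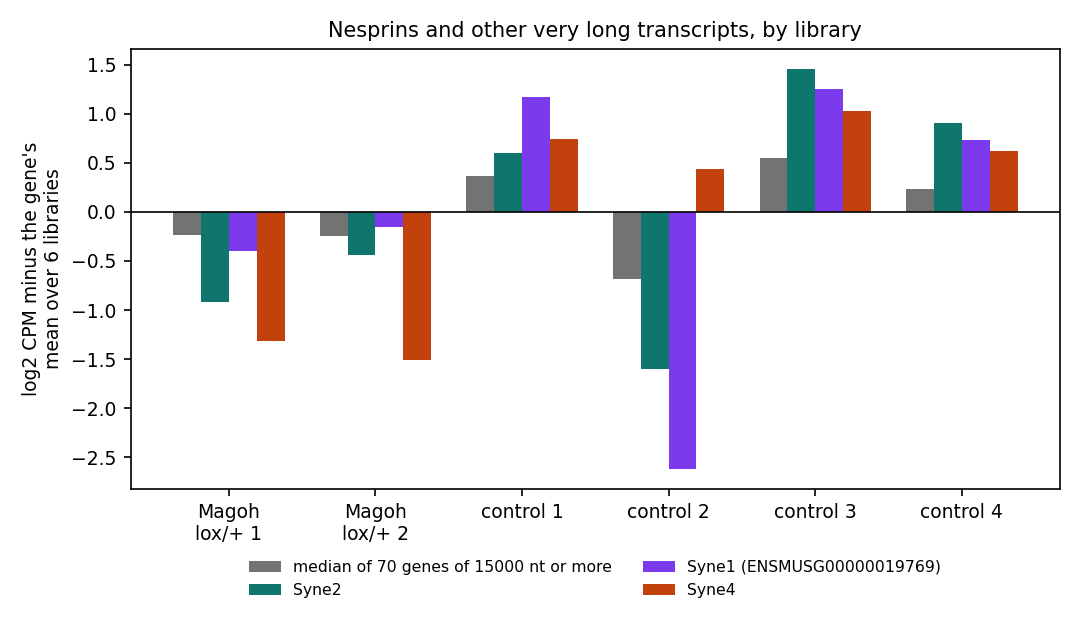
Bars show log2 CPM minus each gene's mean over the 6 libraries, for the median of 70 genes of 15000 nt or more and for Syne2, Syne1 and Syne4. Syne2 and Syne1 follow the long genes down in control 2 (-1.60 and -2.61), whereas Syne4 stays up there (0.44) and is low in both Magoh lox/+ libraries (-1.32 and -1.51).

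Syne1 (nesprin-1), the other giant nesprin and known as the muscle and cerebellar one, had few counted reads. The longest coding transcript of the annotated gene (ENSMUSG00000096054; chromosome 10, 5020917 to 5551482, minus strand) has 146 exons and 27908 nt. Most reads fell on the other ID, ENSMUSG00000019769, which has no entry in GENCODE M21 and is given no coordinates here. That row had 62 and 86 reads in heterozygous libraries, against 166, 10, 213 and 146 reads in controls 1 to 4. The row ENSMUSG00000096054 had 9 and 28 reads in heterozygous libraries, against 10, 0, 2 and 0 reads in controls. The first ID therefore held 87.3% and 75.4% of Syne1 reads in heterozygous libraries and 94.3 to 100% in controls. The counting rule for reads that match both IDs is not known here, which leaves both the split between them and their sum uncertain. Levels of Syne1 per kb divide this sum by the exon length of ENSMUSG00000096054, as the other ID has none. They and the ratios to Syne1 carry the same uncertainty. With both summed, Syne1 stood at 1.67 and 2.32 CPM in heterozygous cells, against 4.72, 0.278, 4.75 and 3.27 CPM in controls. The summed row had a log2 fold change of -0.70 ± 0.87 (SE; edgeR, adjusted p = 0.999). Alone, the first ID had -0.98 ± 0.87 (SE; adjusted p = 0.994) and the second 2.31 ± 1.56 (SE; adjusted p = 0.948). Within a library Syne2 was 61.6 and 61.6 times as abundant as Syne1 per kb in heterozygous libraries, against 62.4, 231, 112 and 111 times in controls 1 to 4.

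SUN proteins, the inner membrane anchors, differed little between genotypes. Sun1 (ENSMUSG00000036817; chromosome 5, 139200637 to 139249840, plus strand) stood at 36.9 and 47.2 CPM in heterozygous cells, against 51.9, 37.9, 55.8 and 63.3 CPM in controls. Sun2 (ENSMUSG00000042524; chromosome 15, 79724070 to 79742536, minus strand) stood at 39.9 and 66.1 CPM in heterozygous cells, against 56.1, 42.6, 52.4 and 46.7 CPM in controls. For Sun2 heterozygous library 1 was below and library 2 above all controls. The log2 fold changes were -0.31 ± 0.23 (SE) for Sun1 and 0.10 ± 0.23 (SE) for Sun2 (edgeR, adjusted p = 0.970 and 0.999). Sun1 made up 39.7% and 33.7% of the summed Sun1 and Sun2 level per kb in heterozygous libraries, against 39.8, 38.9, 43.1 and 49.2% in controls 1 to 4. The mean share was 36.7 ± 4.23% in heterozygous cells (SD, n = 2) and 42.7 ± 4.66% in controls (SD, n = 4). An antisense gene, Gm16575, shares 147 exon bases with Sun2 and had at most 9 reads in a library.

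Lmna (ENSMUSG00000028063; chromosome 3, 88480147 to 88509956, minus strand) was the other member for which both heterozygous libraries lay below every control. A-type lamins stiffen the nucleus and are sparse in the early embryonic brain. It had 157 and 218 reads in heterozygous libraries, against 327, 193, 296 and 407 reads in controls 1 to 4. That is 3.70 and 4.43 CPM in heterozygous cells, against 8.76, 5.37, 6.54 and 9.10 CPM in controls. The nearest libraries, heterozygous library 2 and control 2, had overlapping Poisson 95% intervals of 3.86 to 5.06 and 4.64 to 6.18 CPM. The means were 4.07 ± 0.519 CPM in heterozygous cells (SD, n = 2) and 7.44 ± 1.79 CPM in controls (SD, n = 4), which is a log2 fold change of -0.87 ± 0.30 (SE; edgeR, adjusted p = 0.833; DESeq2, adjusted p = 0.393). It was -0.53 log2 units in heterozygous library 1 against control 2 and -0.85 in heterozygous library 2 against controls 1, 3 and 4.

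Mesenchyme, endothelium and macrophages are rich in A-type lamins, and their markers were found at different levels from library to library. The 10 mesenchyme markers summed to 204 and 79.7 CPM in heterozygous libraries and 127 to 218 CPM in controls. Of these, 8 were below 0, where 53.9% of all tested genes were, with a median of -0.12 and overlapping groups. The 8 endothelium markers summed to 12.8 and 9.19 CPM in heterozygous libraries and 7.76 to 29.7 CPM in controls, with overlapping groups for all 8. Cldn5 and Emcn were at 0 in both heterozygous libraries, but Cldn5 was also at 0 in control 2 and Emcn in controls 1 and 2. Tie1 was at 0 in heterozygous library 2 and control 2, and Pecam1 in control 2. All 8 endothelium markers had log2 fold changes below 0, where 53.9% of all tested genes were, with a median of -0.55. Those with reads in every library were Egfl7 (-0.034), Cdh5 (-0.065), Kdr (-0.71) and Tek (-1.82). The 8 microglia and macrophage markers summed to 12.7 and 0.183 CPM in heterozygous libraries, against 2.79, 3.45, 2.34 and 87.9 CPM in controls 1 to 4. In heterozygous library 2, 7 of them were at 0. All 6 that were tested were below 0, where 53.9% of all tested genes were, with a median of -1.73 and overlapping groups. Control 4 was far above the other controls, and the sum of heterozygous library 1 was above those of controls 1, 2 and 3. Heterozygous library 1 held mesenchyme markers near the top of the control range and had the lowest Lmna of all 6 libraries. Control 4 had the highest sums of mesenchyme, endothelium and macrophage markers and the highest Lmna. The part of these cells in the Lmna difference was not tested. The 5 genes most like Lmna over the 6 libraries were Phkb, Acad9, D10Jhu81e, Tyro3 and Cad, with Pearson's r of 0.978 to 0.985.

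B-type lamins, which every cell type keeps and which mouse cortical neurons need in order to migrate, stood close together in both genotypes. Lmnb1 (ENSMUSG00000024590) had 501 ± 34.4 CPM in heterozygous cells (SD, n = 2) and 517 ± 63.8 CPM in controls (SD, n = 4), which is a log2 fold change of -0.045 ± 0.18 (SE), whose sign turned in 5 of 18 alternatives. Lmnb2 (ENSMUSG00000062075; chromosome 10, 80901203 to 80918245, minus strand) had 87.1 ± 11.6 CPM in heterozygous cells (SD, n = 2) and 98.2 ± 11.7 CPM in controls (SD, n = 4), which is a log2 fold change of -0.17 ± 0.18 (SE). Both had an edgeR adjusted p of 0.999. The ratio of Lmnb1 to Lmnb2 per kb was 8.75 and 7.98 in heterozygous libraries, against 7.26 to 7.88 in controls. As a share of the summed lamin level per kb, Lmna made up 0.352% and 0.379% in heterozygous libraries, against 0.718, 0.559, 0.508 and 0.777% in controls 1 to 4. The groups did not overlap in this share, which sets the A-type lamin against the B-type lamins of the same library. Its mean was 0.365 ± 0.0191% in heterozygous cells (SD, n = 2) and 0.640 ± 0.127% in controls (SD, n = 4), a difference of -0.275 percentage points.

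**Figure D4:**
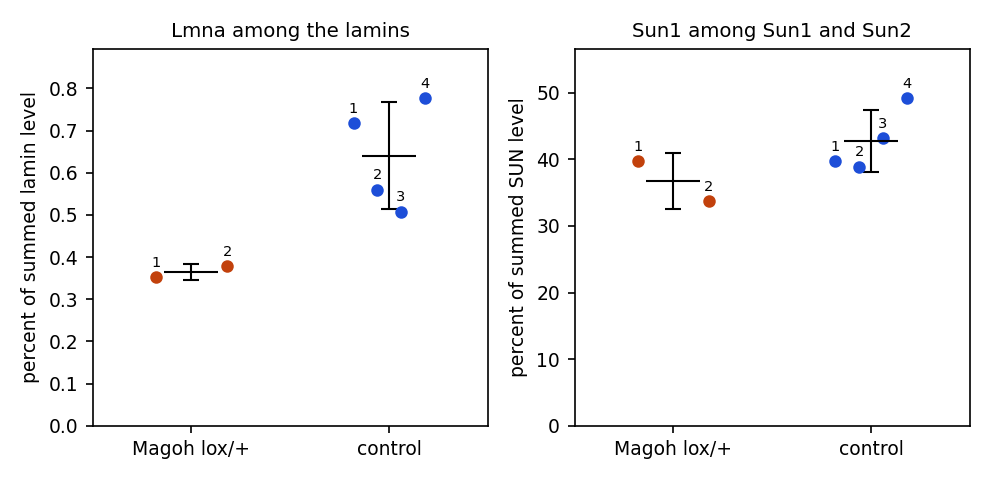
Share of Lmna in the summed lamin level per kb and share of Sun1 in the summed Sun1 and Sun2 level per kb, with Magoh lox/+ left of control; points are libraries numbered by replicate, bars the mean and SD. The Lmna share is 0.352 to 0.379% in Magoh lox/+ libraries and 0.508 to 0.777% in controls, while the Sun1 shares overlap.

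Counted together, 8 of the 10 rows were below 0 on the log2 scale, where 53.9% of all tested genes were. Their median was -0.59, against -0.029 over all tested genes. Of the 10 rows 2 (Syne4 and Lmna) had both heterozygous libraries below all controls, against 8.14% of all genes, and 0 had both above, against 6.17%. The rows were proposed with these differences in view, so nothing is read from these shares. None of the rows passed edgeR, where 0 of all 16495 tested genes did.

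**Figure D5:**
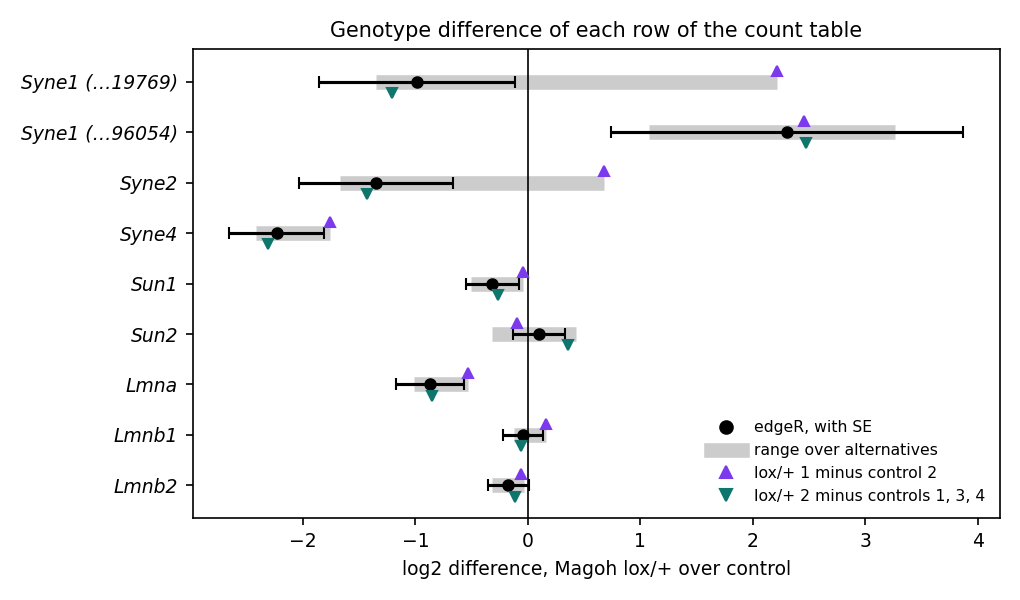
Log2 difference of Magoh lox/+ over control for 9 of the 10 rows, Syne3 being left out because both Magoh lox/+ libraries are at 0; black points are edgeR values with SE, grey bars the range over alternatives, and triangles the differences within each library set. Syne4 stays between -2.42 and -1.76 and Lmna between -1.01 and -0.53, whereas Syne2, Sun2, Lmnb1 and the first Syne1 row reach both sides of 0.

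Genes that work with the members were read from lists that were set with earlier results known. Of their genes 0 passed edgeR in either direction, where 0 of all 16495 tested genes did. Among other KASH and SUN genes, Ccdc155 (now Kash5) is the KASH protein that moves meiotic chromosomes. It stood at 0 and 0.244 CPM in heterozygous cells and 0.389 to 1.14 CPM in controls. Both heterozygous libraries were below all controls, as for 8.14% of all tested genes. Spag4, a SUN protein of the testis, stood at 4.64 and 6.53 CPM in heterozygous cells and 5.01 to 8.20 CPM in controls. Sun5 had 0 reads in every library. Lrmp and Sun3 were at 0 in both heterozygous libraries and at most at 0.139 and 0.177 CPM in controls.

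Of 15 inner membrane and lamina partners, 13 were below 0, where 53.9% of all tested genes were. The list's median log2 fold change was -0.091, against -0.029 over all tested genes. Cbx5, the heterochromatin protein HP1 alpha, stood at 781 and 608 CPM in heterozygous cells and 803 to 1037 CPM in controls, without overlap. It was the only 1 of the 15 below all controls in both heterozygous libraries, as were 8.14% of all tested genes. Lbr, the lamin B receptor, stood at 197 and 143 CPM in heterozygous cells and 179 to 270 CPM in controls. Tor1b, an envelope ATPase, stood at 10.9 and 16.2 CPM in heterozygous cells and 16.02 to 23.9 CPM in controls. Of the 5 enzymes that farnesylate, trim and methylate lamin tails, 3 were above 0, with a median of 0.042. The methyltransferase Icmt stood at 55.8 and 44.6 CPM in heterozygous cells and 39.5 to 45.4 CPM in controls, and the farnesyltransferase subunit Fntb at 54.0 and 55.3 CPM in heterozygous cells and 47.9 to 56.2 CPM in controls. Rce1, which trims the CaaX box, stood at 25.5 and 25.1 CPM in heterozygous cells and 21.5 to 29.9 CPM in controls.

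Of 17 motor and cytoskeletal partners of nesprins, 10 were above 0 and 7 below, with a median of 0.066. Over all tested genes 53.9% were below 0. Ndel1, a dynein regulator of nuclear movement, stood at 37.0 and 38.9 CPM in heterozygous cells and 28.7 to 35.0 CPM in controls, without overlap. In this list 2 genes had both heterozygous libraries above all controls, as did 6.17% of all tested genes. Fhod1, a formin that binds giant nesprins, stood at 11.1 and 8.28 CPM in heterozygous cells and 9.65 to 21.1 CPM in controls. All 3 nuclear pore basket genes were below 0, and Tpr, a long transcript, spread like Syne2, at 51.9 and 109 CPM in heterozygous cells and 202, 28.3, 278 and 181 CPM in controls 1 to 4.

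No neuron or progenitor marker passed edgeR, where 0 of all 16495 tested genes did. The 8 neuron markers summed to 3339 and 4015 CPM in heterozygous libraries and 1945 to 2853 CPM in controls, and all 8 were above 0. Of them, 5 were above all controls in both heterozygous libraries, as were 6.17% of all tested genes. The 8 neural progenitor markers overlapped between the groups. Their sum was 3468 and 4181 CPM in heterozygous libraries and 3382 to 5741 CPM in controls. Of these markers, 5 were below 0, where 53.9% of all tested genes were. The proliferation marker Mki67 stood at 94.3 and 176 CPM in heterozygous cells, against 566, 68.9, 807 and 481 CPM in controls 1 to 4. The part of the neuron and progenitor share in the members' values was not tested.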

How the data were processed

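Per the labels' protocols, sorted tdTomato-positive cells were lysed, RNA was column-purified and a NuGEN mRNA kit was used without its globin depletion. The submitters' processing notes name Trim Galore, STAR, HTSeq and mm10, and no source used here states versions, annotation or strandedness. The authors deposited raw counts for 38561 genes, and a normalized signal for 18065 genes that was checked to equal the counts over 1 factor per library. Columns were matched to samples by code, and 0 library pairs were identical.

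The members, lists and alternatives were chosen with earlier results of these data known. edgeR 4.0.16 (filterByExpr, TMM, robust glmQLFit, two-sided glmQLFTest, R 4.3.3) was fitted to all 6 libraries, with Benjamini-Hochberg adjustment over 16495 genes and an adjusted p threshold of 0.05. SE is the absolute log2 fold change over the root of F. An exact two-sided permutation of 2 against 4 libraries cannot go below 0.0667. Levels per kb use merged exons of GENCODE M21 (GRCm38). A count of 0 allows up to 3 counts, and intervals and floors cover counting error only, as reads carry no molecular identifiers. Named genes were the members, Magoh, overlapping genes, the 5 most alike to Syne4 and to Lmna, up to 3 of each list by smallest p, and markers at 0. Alternatives were DESeq2 1.42.0, limma 3.58.1 (voom, or trend with a pseudocount of 1 on the normalized signal), other scalings and filters, a code number block, a Y-linked covariate, removal of length and GC trends (loess, span 0.5), and library subsets. Summed Syne1 IDs, longest-transcript lengths and the interaction with Y-linked reads were added after seeing the files. Scripts were tested on simulated data. Coding ends of Lmna are not reported here.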

Additional observations from a re-analysis of the deposited data

Results flagged for a closer look

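For 3 members the genotype difference ran in opposite directions in the libraries without and with Y-linked reads. In each case heterozygous library 2 lay on the same side of controls 1, 3 and 4, while the other set holds 1 library of each genotype. Syne1 (ENSMUSG00000019769) differed by 2.21 log2 CPM between heterozygous library 1 and control 2, while heterozygous library 2 differed by -1.20 from the mean of controls 1, 3 and 4. The interaction was -3.62 log2 units. Syne2 differed by 0.68 and -1.43 in the same contrasts (interaction -2.15). Sun2 differed by -0.093 and 0.36 (interaction 0.45). These interactions are a description only, since all spread behind them comes from controls 1, 3 and 4. The Sun1 share of the summed SUN level also differed in direction, at 0.850 percentage points for heterozygous library 1 against control 2 and -10.3 for heterozygous library 2 against controls 1, 3 and 4, a difference that was not tested. The presence of Y-linked reads and the length difference of the libraries cannot be told apart.

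For the Syne1 row ENSMUSG00000096054, control 1 stood at 0.268 CPM, far from the other controls at 0 to 0.0442 CPM. It rests on 10 reads, and among 13 control groups examined in this way chance flags about 1 in 20.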

How the results depend on the processing

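Syne4 and Lmna kept a log2 fold change below 0 in 18 of 18 alternatives, as did Sun1 and Lmnb2. DESeq2 called Syne4 (-2.23, adjusted p = 0.00855; adjusted p over its alternatives otherwise 0.153 to 1). The count of genes called was 0 with edgeR and 54 with DESeq2. A replicate block on the code number called 11, and there Syne4 stood at -2.36 and Lmna at -0.98 with no member called. This block rests on heterozygous library 2 and control 1, the only libraries of both genotypes that share a number, and the labels do not say what it marks. In the 2 libraries without Y-linked reads the values were -1.76 for Syne4, -0.53 for Lmna, -0.042 for Sun1, 0.68 for Syne2, 2.21 for Syne1 (ENSMUSG00000019769), -0.093 for Sun2 and 0.16 for Lmnb1, and the Sun1 and Syne2 shares differed by 0.850 and -1.17 percentage points. With Y-linked reads as a covariate, Syne1 (ENSMUSG00000019769) stood at 0.15 and Lmnb1 at 0.030. Lmnb1 was 0.037 with length and GC trends removed, a setting that shifts the median of all genes by 0.11. Lmnb1 was also 0.036 without heterozygous library 1 and 0.012 without control 3, and Sun2 was -0.31 without heterozygous library 2. With raw counts the Lmna share differed by -0.508 percentage points. Leaving out each library gave -2.33 to -2.11 for Syne4, -1.01 to -0.74 for Lmna, -1.67 to -0.97 for Syne2, -1.35 to -0.73 for Syne1 (ENSMUSG00000019769), -0.51 to -0.14 for Sun1, -0.31 to 0.43 for Sun2 and -0.12 to 0.036 for Lmnb1. Lmnb2 ran from -0.32 without heterozygous library 2 to -0.031 without heterozygous library 1, and the second Syne1 row (ENSMUSG00000096054) from 1.42 without heterozygous library 2 to 2.86 without heterozygous library 1. The Lmna share ran from -0.319 to -0.230 and the Sun1 share from -8.996 to -3.02 percentage points. The ratio of the Syne3 control mean to the heterozygous floor ran from 6.12 to 10.8 when each control was left out. The causes were not tested. Syne3 and the second Syne1 row rest on at most 28 reads in a library, which limits both.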
